A study of Mus musculus with 6 samples.

Results

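Cathepsins are the proteases of the lysosome, and 10 of their genes (Ctsa, Ctsb, Ctsc, Ctsd, Ctsf, Ctsh, Ctsk, Ctsl, Ctss and Ctsz) were examined in the RNA sequencing of mouse microglia. They were picked by name from a family, with earlier results of these data known, and make up 10 of the 55401 gene identifiers in the deposited table. Microglia were isolated from perfused, enzymatically digested brains on a Percoll gradient and selected with magnetic beads for CD11b, a surface protein that other myeloid cells also carry. There were 3 libraries from lupus-prone MRL/lpr mice, which carry the lpr mutation of Fas, the gene of a death receptor, and 3 from MRL/mpj mice, the control strain without that mutation. All animals were untreated, with an age of 6 weeks on the labels, and the mutation is present in every cell of an MRL/lpr mouse. The study counts as many mice per strain as there are libraries, but the labels do not tie a library to an animal, so p-values measure only the spread between these libraries.

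Cathepsins are made as inactive precursors, carried to the lysosome largely by mannose 6-phosphate receptors and activated there at acid pH. Most belong to the papain-like cysteine family, whereas Ctsd encodes an aspartic and Ctsa a serine protease. In microglia and other phagocytes they degrade engulfed material, process antigens for MHC class II and cleave endosomal receptors, and small proteins of the cystatin family hold the cysteine members in check.

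The libraries held 45481609 to 49846634 counts. Expression of Fas did not separate the strains, with 282 to 461 counts in MRL/lpr and 362 to 432 in MRL/mpj libraries, so it gave no check of the labels. The methods describe female mice. Xist had 8886 to 11319 counts in MRL/lpr but 27 to 38 in MRL/mpj libraries, and 4 Y-linked genes together had 8408 to 11783 and 13155 to 15046 counts, so the sex make-up of the libraries and the strain cannot be told apart. The share of mitochondrial genes was 3.06% to 3.49% in MRL/lpr and 5.84% to 6.38% in MRL/mpj libraries. A pair of libraries stood apart. MRL/lpr replicate 3 gave 6.38% of its counts to CT010467.1, against at most 0.457% elsewhere, and MRL/lpr replicate 2 held 132706 counts of the microglial receptor gene Cx3cr1, while replicates 1 and 3 of that strain had 10645 and 10334.

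The windows upstream of 3 members are shown because Ctsd and Ctss had the highest levels per exon length and Ctsf was the member that rose in MRL/lpr microglia. Bases come from RefSeq on GRCm38.p6 and run 5′ to 3′ on the gene's strand, ending at the start of transcription or earlier where annotated exon bases were left out. Capitals mark CACGTGAC, the reverse complement of the extended E-box GTCACGTG linked to lysosomal genes, in the Ctsd window at chr7:142388039-142388077 (minus strand), the E-box core CACGTG in the Ctsf window at chr19:4854915-4855129 (plus strand), and GAAACCGAAA, a match to the core of the interferon-stimulated response element (GAAA, any 2 bases, GAAA), in the Ctss window at chr3:95526536-95526785 (plus strand).
Ctsd: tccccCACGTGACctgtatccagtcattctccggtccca
Ctsf: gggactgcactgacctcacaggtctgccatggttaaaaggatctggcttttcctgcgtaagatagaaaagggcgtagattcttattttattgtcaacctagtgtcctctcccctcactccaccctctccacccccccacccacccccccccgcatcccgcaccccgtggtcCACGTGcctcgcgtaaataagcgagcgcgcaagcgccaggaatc
Ctss: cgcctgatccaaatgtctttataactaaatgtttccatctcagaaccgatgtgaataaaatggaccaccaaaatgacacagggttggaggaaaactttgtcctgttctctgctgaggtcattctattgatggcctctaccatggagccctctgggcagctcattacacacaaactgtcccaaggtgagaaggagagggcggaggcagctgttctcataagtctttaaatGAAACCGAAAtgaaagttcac

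Windows of 250 bases were found for 8 of the 10 members, and none for Ctsb and Ctsh. On both strands of 32851 windows of that length, CACGTG occurred in 6.02%, GTCACGTG, which contains it, in 1.85%, the interferon-stimulated response element core in 2.98%, TTCNNNGAA (the gamma-activated site) in 7.02% and GAGGAAGT (a core of PU.1 sites) in 2.44%. The Ctsd window held the extended E-box at 245 and again at 98 bases before its start, the latter in annotated exon bases. The Ctsf window held an E-box core at 79 bases and the Ctsl window one at 236 bases. The start used for Ctsl lies 370 bases inside its annotated gene, so that match is within the gene and not upstream of it. The Ctss window held the interferon element core at 21 bases, and the Ctsc window a gamma-activated site at 236 and the PU.1 core at 151 bases. None of these letters occurred in the windows of Ctsa, Ctsk and Ctsz. These matches describe sequence and are not binding sites measured here.

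Cathepsin D and cathepsin S dominated cathepsin expression in these microglia. In FPKM, which is scaled to exon length and depth and so allows genes to be compared, Ctsd averaged 3543 over the 6 libraries and ranked 9 among all genes, and Ctss averaged 2774 and ranked 11. Ctsz followed with 557, Ctsb with 389 and Ctsa with 157. Below them came Ctsl with 72.4, Ctsh with 64.6, Ctsc with 62.2 and Ctsf with 37.1 FPKM, a group in which the order was less distinct. Ctsk, the collagen-degrading enzyme of osteoclasts, was lowest at 1.16 FPKM and ranked 12205. Library ranges of neighbours in this order overlapped for Ctsl and Ctsh in MRL/lpr, for Ctsh and Ctsc in MRL/mpj and for Ctsc and Ctsf in MRL/lpr. In MRL/mpj the order of Ctsh and Ctsc was reversed in each library, with Ctsc at 66.9, 70.9 and 72.3 and Ctsh at 62.7, 69.8 and 58.4 FPKM. Ctsl was above Ctsh in only 1 MRL/lpr library. No other pair of neighbours overlapped in either strain. The deposited FPKM used the full set of annotated exon bases, which for Ctsh is 4499 against 1617 in its principal transcript. With counts per kilobase of the principal transcript, an alternative added after the values were seen, Ctsh ranked 6, Ctsc 7, Ctsf 8 and Ctsl 9, and the other 6 members kept their place.

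**Figure D1:**
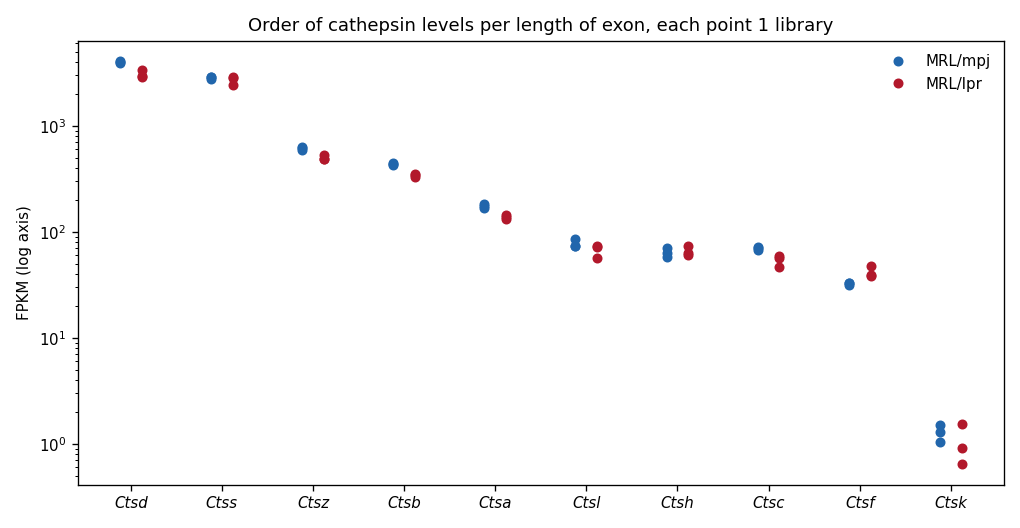
FPKM of the 10 cathepsin genes on a log axis, ordered by their mean over 6 libraries, with 1 point per library (blue, MRL/mpj; red, MRL/lpr). Ctsd and Ctss lie above the other members in each library, Ctsl, Ctsh and Ctsc lie close together, and Ctsk lies at or below 1.55 FPKM.

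Between strains, the cathepsin genes differed little. All 10 passed the filter on low counts. With edgeR's quasi-likelihood test and Benjamini-Hochberg adjustment over 19554 genes, none reached the 2-fold minimum of the study with an adjusted p under 0.05, against 8.34% of all genes tested (4.67% higher and 3.66% lower). DESeq2 also called 0 of the 10, against 7.93% of all genes it tested, and limma on FPKM called 0. At the adjusted p alone, Ctsf rose and Ctsb fell in MRL/lpr microglia, 2 of 10 members against 20.2% of all genes (11.1% higher and 9.06% lower), and 6 of the 10 (Ctsa, Ctsb, Ctsc, Ctsd, Ctsf and Ctsz) had an unadjusted p under 0.05, against 31.8%. By its adjusted p alone DESeq2 passed 4 lower members (Ctsa, Ctsb, Ctsc and Ctsd) and 1 higher (Ctsf), against 18.1% of all genes. The log2 fold change was below 0 for 7 of 10 members and for 51% of all genes, and its median was -0.18 over the members and -0.01 over all genes. Groups did not overlap for 4 members that were lower (Ctsa, Ctsb, Ctsc and Ctsd) and for Ctsf, which was higher, 5 of 10 members against 39% of all genes (19.4% lower and 19.6% higher). Among the 1929 genes with at least 100 CPM (counts scaled to library size with TMM factors), 36.9% had an adjusted p under 0.05, with 194 lower and 517 higher, and their median was 0.08. In bulk RNA, fewer cells of a type and less RNA per cell cannot be told apart.

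**Figure D2:**
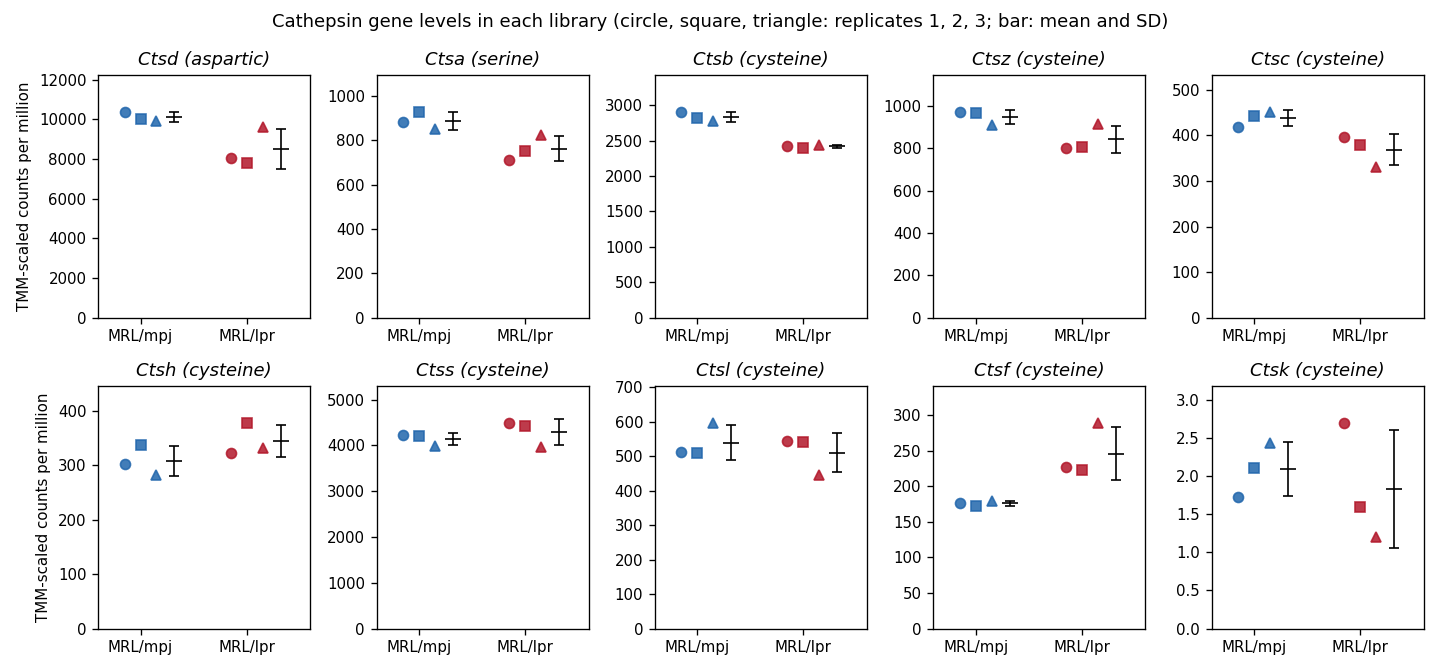
TMM-scaled CPM of each cathepsin gene in each library (blue, MRL/mpj; red, MRL/lpr; circle, square and triangle for replicates 1, 2 and 3), with the mean and SD of 3 libraries as bars. Strains are separate for Ctsd, Ctsa, Ctsb, Ctsc and Ctsf, and MRL/lpr replicate 3 lies apart from the other MRL/lpr libraries for Ctsd and Ctsf.

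Ctsd (ENSMUSG00000007891, chr7:142375911-142388038, GRCm38) encodes the main aspartic protease of the lysosome, loss of which causes a neuronal storage disease. Its level was 8029, 7815 and 9634 CPM in the MRL/lpr libraries and 10375, 10036 and 9918 CPM in the MRL/mpj libraries. The groups did not overlap, but MRL/lpr replicate 3 stood close to the control range. Means were 8493 ± 994 and 10109.9 ± 237 CPM (SD, n = 3), with a log2 fold change of -0.25 (SE 0.08, 95% interval -0.43 to -0.07) that missed the threshold (edgeR adjusted p = 0.0573). Without MRL/lpr replicate 3, which stood apart in its content of CT010467.1, the log2 fold change was -0.35 and the edgeR adjusted p was 5.9e-05. It missed the threshold with any other library left out, with adjusted p from 0.124 to 0.188, the last without MRL/lpr replicate 2.

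Ctsa (ENSMUSG00000017760, chr2:164832873-164841032) encodes the serine carboxypeptidase that also shields neuraminidase and β-galactosidase in the lysosome. It was measured at 710.2, 752 and 822 CPM in MRL/lpr and at 884, 929 and 849.9 CPM in MRL/mpj libraries. All 3 MRL/lpr libraries were below all controls, again with replicate 3 nearest to them. The log2 fold change was -0.22 (SE 0.07, edgeR adjusted p = 0.053), and -0.28 with an adjusted p of 0.00389 without that library. With each of the other 5 libraries left out the adjusted p was 0.0832 to 0.2003. Ctsa overlaps Pltp on the other strand, which had 11900 to 19760 counts, and the strand setting of the counting was not stated.

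The exopeptidases of the cysteine family were mostly at lower values in MRL/lpr, and one of them passed the test. Ctsb (ENSMUSG00000021939, chr14:63122462-63145923), a peptidase that trims dipeptides from the C terminus and also cuts within chains, had 2426, 2396 and 2438 CPM in MRL/lpr and 2905, 2825 and 2769.9 CPM in MRL/mpj libraries. Its libraries hardly varied within a strain, and the strains were clearly separate. Means were 2420 ± 21.6 and 2833 ± 67.7 CPM (SD, n = 3), so that Ctsb fell by 14.6% (log2 fold change -0.23, SE 0.05, 95% interval -0.34 to -0.11, edgeR adjusted p = 0.0131). The adjusted p passed the threshold again when MRL/lpr replicate 3 was left out (0.00107) but not without MRL/lpr replicate 2 (0.0534), MRL/mpj replicate 1 (0.0718) or MRL/mpj replicate 2 (0.0654), with log2 fold changes of -0.21 to -0.24 over the 6 libraries left out in turn.

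Ctsc (ENSMUSG00000030560, chr7:88278085-88310888) encodes dipeptidyl peptidase I, which activates granzymes and neutrophil serine proteases. It had 396, 379 and 329.8 CPM in MRL/lpr against 418, 442 and 451 CPM in MRL/mpj libraries, without overlap. Here replicate 3 was the MRL/lpr library farthest from the controls. The log2 fold change was -0.25 (SE 0.08, edgeR adjusted p = 0.0513), and -0.17 without MRL/lpr replicate 3 with an adjusted p of 0.0271. It also passed without MRL/lpr replicate 1 (0.0448) but not with any other library left out (0.0879 to 0.164).

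Ctsz (ENSMUSG00000016256, chr2:174427493-174439039), a carboxypeptidase, had 804, 807 and 918 CPM in MRL/lpr and 973, 965 and 909.8 CPM in MRL/mpj libraries. The groups overlapped through MRL/lpr replicate 3. The log2 fold change was -0.17 (SE 0.07, edgeR adjusted p = 0.12), and without that library it was -0.23 with an adjusted p of 0.00394, against 0.154 to 0.3101 with each other library left out. Ctsh (ENSMUSG00000032359, chr9:90054152-90076089), an aminopeptidase, had 324, 379 and 331 CPM in MRL/lpr and 303, 337 and 282 CPM in MRL/mpj libraries. These overlapping values gave a log2 fold change of 0.16 (SE 0.09, 95% interval -0.03 to 0.36, edgeR adjusted p = 0.239).

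Among the endopeptidases of the cysteine family, Ctsf rose and the far more abundant Ctss did not pass the test. Ctsf (ENSMUSG00000083282, chr19:4855130-4860918), which encodes cathepsin F, an enzyme able to process the invariant chain in macrophages, had 227, 223 and 289.8 CPM in MRL/lpr and 177, 172 and 179.5 CPM in MRL/mpj libraries. Every MRL/lpr library was above every control library, and replicate 3 was the highest. Means were 246 ± 37.7 and 176 ± 3.84 CPM (SD, n = 3), a 1.40-fold increase (log2 fold change 0.48, SE 0.10, 95% interval 0.26 to 0.71, edgeR adjusted p = 0.00791). Without MRL/lpr replicate 3 the log2 fold change was 0.36 (adjusted p = 0.000636), and the adjusted p stayed under 0.05 with each library left out in turn, at most 0.0429.

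Ctss (ENSMUSG00000038642, chr3:95526786-95556403) encodes the enzyme that completes the breakdown of the invariant chain before peptides load onto MHC class II, and it is a marker of microglia in the brain. It had 4497, 4417 and 3971 CPM in MRL/lpr and 4234, 4203 and 3990 CPM in MRL/mpj libraries. Replicates 1 and 2 of MRL/lpr were above all controls and replicate 3 was below them. The log2 fold change was 0.05 (SE 0.06, 95% interval -0.09 to 0.20, edgeR adjusted p = 0.646) and turned to -0.069 with scaling by library size only and to -0.071 with limma on FPKM, whereas without MRL/lpr replicate 3 it was 0.11 (adjusted p = 0.0456, against 0.676 to 0.905 with each other library left out). Scaling by library size only moved the median of all genes from -0.01 to -0.13.

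Ctsl (ENSMUSG00000021477, chr13:64359337-64370890), a broad endopeptidase of the lysosome, had 545, 541 and 445 CPM in MRL/lpr and 512, 511 and 598 CPM in MRL/mpj libraries. The groups overlapped, with MRL/lpr replicate 3 the lowest and MRL/mpj replicate 3 the highest. The log2 fold change was -0.08 (95% interval -0.30 to 0.13, edgeR adjusted p = 0.624), and 0.01 without MRL/lpr replicate 3. Ctsk (ENSMUSG00000028111, chr3:95499256-95509362), which lies 17423 bases from Ctss, had 127, 75 and 50 counts in MRL/lpr and 89, 105 and 127 counts in MRL/mpj libraries. At this depth a difference was not detectable, with a log2 fold change of -0.19 and a 95% interval from -0.99 to 0.61 (edgeR adjusted p = 0.776), and of 0.04 without MRL/lpr replicate 3.

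**Figure D3:**
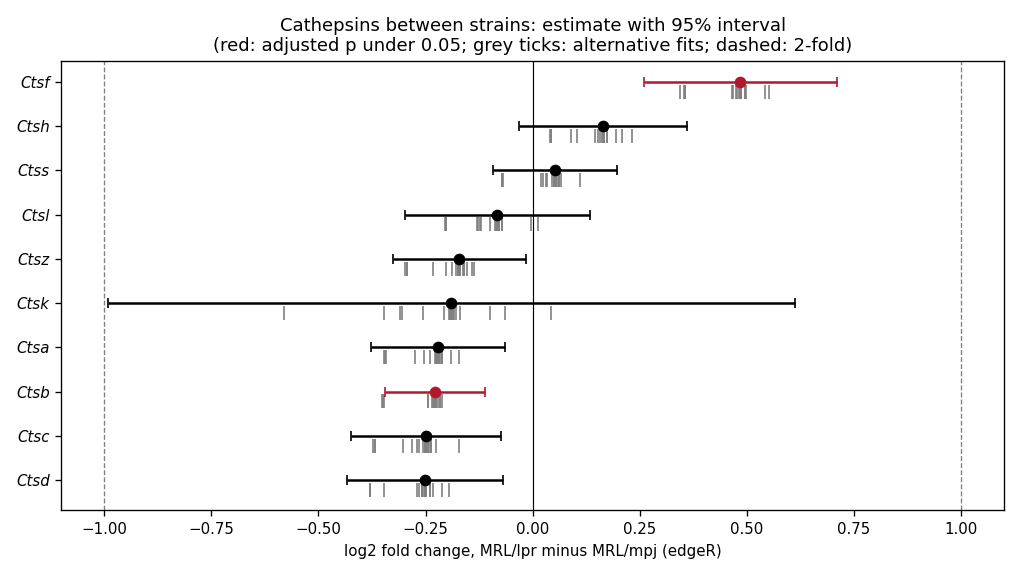
Log2 fold change of each cathepsin gene (MRL/lpr minus MRL/mpj) from edgeR with its 95% interval, in red where the adjusted p is under 0.05, with grey ticks for the alternative fits and dashed lines at a 2-fold change. All intervals lie inside the 2-fold lines, Ctsf is the member to the right with an interval clear of 0, and ticks on both sides of 0 are seen for Ctss, Ctsl and Ctsk.

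Together the 10 genes took 1.76%, 1.73% and 1.76% of all counts in MRL/lpr microglia and 2.16%, 2.13% and 2.08% in MRL/mpj microglia. On the TMM scale, which allows for differences in library composition, their sum was 17709 to 19179 CPM and 19952 to 20783 CPM, and both measures were without overlap. Ctsd made up 44.7%, 44.1% and 50.2% of the cathepsin counts in MRL/lpr and 49.9%, 49.1% and 49.7% in MRL/mpj libraries. Ctss made up 25.0%, 24.9% and 20.7% in MRL/lpr and 20.4%, 20.6% and 20% in MRL/mpj libraries. For these 2 genes MRL/lpr replicate 3 was nearer to the controls than replicates 1 and 2 were, but for Ctsb it was the farthest, at 12.7% against 13.5% in each of the other MRL/lpr libraries and 13.8% to 14.0% in the controls.

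Ratios of counts within a library do not depend on scaling between libraries. Of 18 such ratios, chosen after the values were seen, several separated the strains, and with 3 against 3 libraries the two-sided exact permutation test cannot give a p under 0.1. The ratio of Ctsb to Ctss was 0.539, 0.542 and 0.614 in MRL/lpr and 0.686, 0.672 and 0.694 in MRL/mpj libraries (exact permutation p = 0.1). The ratio of Ctsf to Ctsb was 0.0935, 0.0929 and 0.119 in MRL/lpr and 0.0608, 0.0609 and 0.0648 in MRL/mpj libraries (exact permutation p = 0.1). Both pairs were thus without overlap, with Ctsb lower relative to either partner. The ratio of Ctsd to Ctss was 1.79, 1.77 and 2.43 against 2.45, 2.39 and 2.49, and it overlapped because MRL/lpr replicate 3 fell among the controls (exact permutation p = 0.2).

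**Figure D4:**
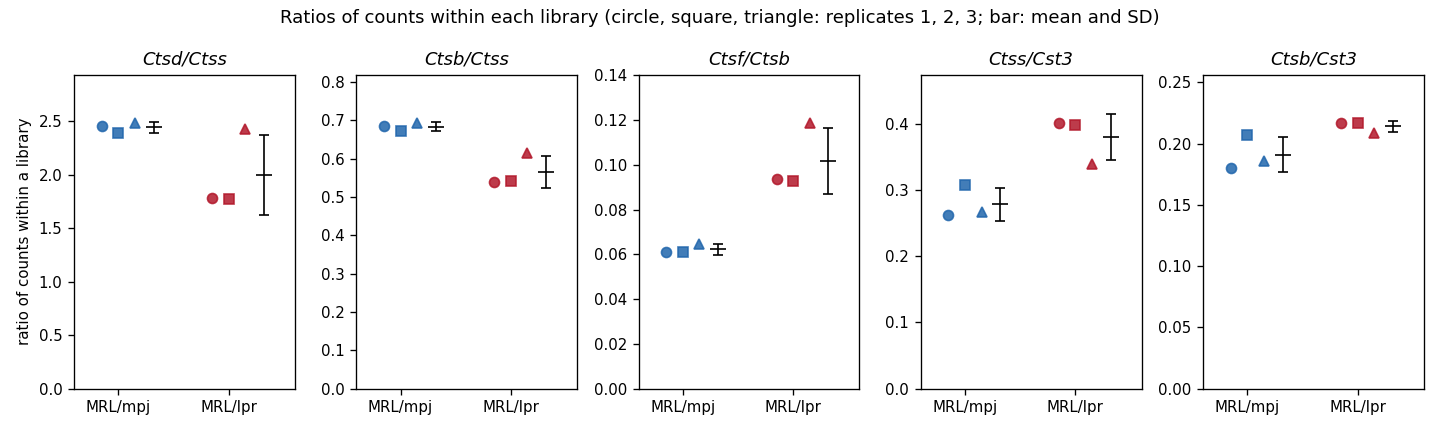
Ratios of counts within each library for 5 gene pairs (blue, MRL/mpj; red, MRL/lpr; circle, square and triangle for replicates 1, 2 and 3), with the mean and SD of 3 libraries as bars and axes starting at 0. The ratio of Ctsd to Ctss overlaps between strains, and the other 4 ratios do not.

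Of the inhibitors, the most abundant fell. Cst3 encodes cystatin C, a secreted inhibitor of cysteine cathepsins, and its level was 11169, 11054 and 11665 CPM in MRL/lpr and 16141, 13653 and 14911 CPM in MRL/mpj libraries. All MRL/lpr libraries were below the controls (log2 fold change -0.40, SE 0.07, edgeR adjusted p = 0.00296). The ratio of Ctss to Cst3 counts was 0.403, 0.400 and 0.340 in MRL/lpr and 0.262, 0.308 and 0.268 in MRL/mpj libraries, and that of Ctsb to Cst3 was 0.217, 0.217 and 0.209 against 0.180, 0.207 and 0.186. Both ratios were higher in each MRL/lpr library than in any control (exact permutation p = 0.1 each), including that of Ctsb, which itself fell.

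Of the 13 listed inhibitors 9 were tested, of which 2 rose and 3 fell, with a median log2 fold change of -0.37. Cstb, which encodes the intracellular cystatin B, rose from 16.8 ± 1.38 to 24.8 ± 1.46 CPM (log2 fold change 0.56, edgeR adjusted p = 0.00547). Ctla2a and Ctla2b, which encode proteins like the propeptide of cathepsins, moved in opposite directions, from 18.4 to 39.6 CPM (log2 fold change 1.10, edgeR adjusted p = 6.69e-05) and from 5.75 to 1.997 CPM (log2 fold change -1.52, edgeR adjusted p = 0.00739). They are close copies of each other, so how reads were divided between them is uncertain. The same holds for the stefin gene Stfa2l1. It was not counted in any MRL/lpr library (0 counts) and had 11, 18 and 22 counts in MRL/mpj libraries. With a floor set at 3 counts per library, it was at least 5.001-fold lower in MRL/lpr. This bound would be smaller if 1 read pair is worth more than 3 counts. The median of the inhibitors was -0.37 also with Stfa2l1 at this bound.

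Outside the 10 genes, 4 of 12 other cathepsin genes were tested, and 2 of them rose with none lower. Ctsw, a cathepsin of cytotoxic lymphocytes, was at 2.36, 2.23 and 2.78 CPM in MRL/lpr and 0.934, 0.580 and 0.711 CPM in MRL/mpj libraries (log2 fold change 1.72, SE 0.33, edgeR adjusted p = 0.00504). Ctse, an endosomal aspartic protease, rose from 10.2 ± 0.861 to 16.9 ± 1.596 CPM (log2 fold change 0.73, edgeR adjusted p = 0.00365). Ctso was at 84.2 and 88.6 CPM (log2 fold change -0.08, edgeR adjusted p = 0.495), and Ctsg, the neutrophil protease, at 1.24 and 0.317 CPM (log2 fold change 1.97, SE 0.99, edgeR adjusted p = 0.22). The other 8, which belong to a cluster expressed in placenta, had 0 counts in all 6 libraries.

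Genes for the sorting and activation of cathepsins gave no gene past the test. None of 10 passed the edgeR test in either direction, none had an unadjusted p under 0.05, DESeq2 passed none, and their median log2 fold change was 0.03. With MRL/lpr replicate 3 left out, 1 of the 10 was higher. Lgmn, which encodes the asparaginyl endopeptidase that matures several cathepsins, was at 3587 ± 53.2 CPM in MRL/lpr and 3536 ± 24.1 CPM in MRL/mpj (log2 fold change 0.02, 95% interval -0.09 to 0.13, edgeR adjusted p = 0.834). Of 5 transcription factors and channels that regulate lysosomal genes, Mitf fell from 46.3 ± 0.842 to 33.5 ± 4.16 CPM (log2 fold change -0.47, edgeR adjusted p = 0.0111). None rose, and the median was -0.06. The most abundant of these, Tfe3, had a log2 fold change of 0.08 (edgeR adjusted p = 0.537).

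Among 15 substrates and partners, of which 14 were tested, 3 rose and 1 fell, with a median log2 fold change of 0.18. With MRL/lpr replicate 3 left out, 5 rose. Cd74, the invariant chain that Ctss and Ctsf products cut, rose from 175, 193 and 179 CPM to 783, 826 and 791 CPM (log2 fold change 2.13, SE 0.06, edgeR adjusted p = 1.06e-07), a fitted fold of 4.38 beside one of 1.04 for Ctss. Gzma and Gzmb, granzymes that Ctsc activates, rose from 1.35 ± 0.166 to 4.39 ± 0.675 CPM (log2 fold change 1.70, edgeR adjusted p = 0.00119) and from 0.592 ± 0.0572 to 3.59 ± 0.846 CPM (log2 fold change 2.59, edgeR adjusted p = 0.000333). The listed neutrophil serine proteases Elane (log2 fold change -0.03, edgeR adjusted p = 0.974) and Prtn3 (0.46, edgeR adjusted p = 0.351) overlapped between the strains. Glb1, the β-galactosidase that the Ctsa product protects, fell from 63.8 ± 4.19 to 48.4 ± 4.98 CPM (log2 fold change -0.40, edgeR adjusted p = 0.0183). Its adjusted p was no longer under 0.05 when MRL/lpr replicate 1, MRL/lpr replicate 2, MRL/mpj replicate 1 or MRL/mpj replicate 2 was left out. Neu1, the neuraminidase that the Ctsa product also shields, went the other way. It was at 86.2 ± 2.84 CPM in MRL/mpj and 102 ± 8.87 CPM in MRL/lpr, without overlap (log2 fold change 0.24, edgeR adjusted p = 0.0679). Cstb, Ctse, Mitf, Glb1, Neu1, Elane and Prtn3 were named after their values were seen.

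**Figure D5:**
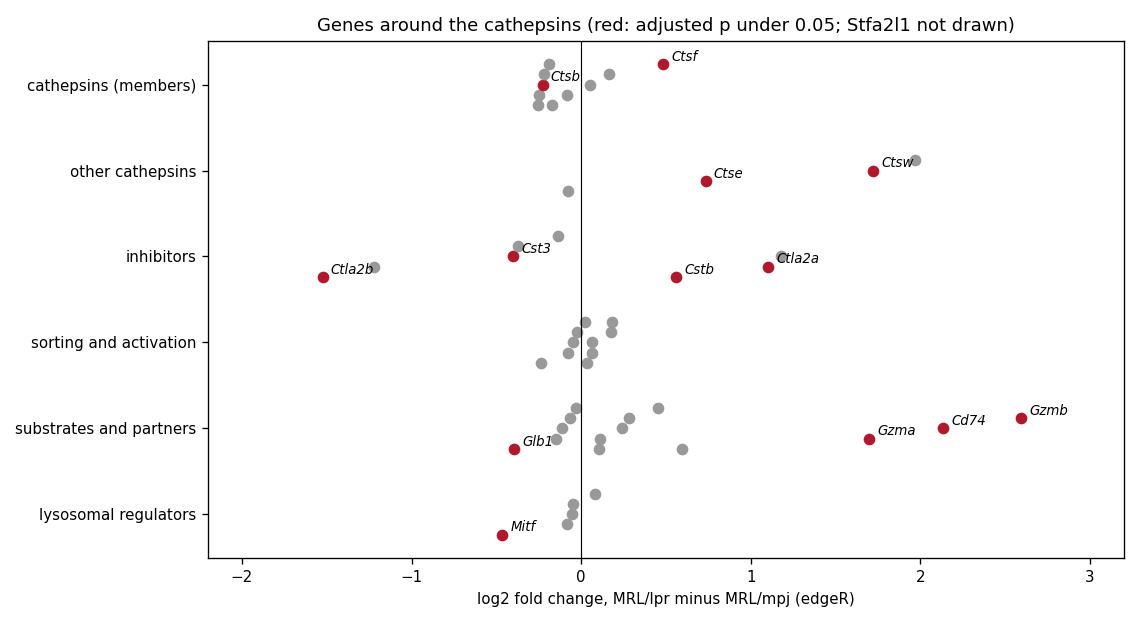
Log2 fold change (MRL/lpr minus MRL/mpj, edgeR) of the cathepsin genes and of 5 lists around them, with 1 point per tested gene and red for an adjusted p under 0.05. The cathepsin genes lie between -0.25 and 0.48, whereas the red points of Cd74, Gzma, Gzmb, Ctsw and Ctla2a lie beyond 1 and that of Ctla2b below -1. Points not in red lie beyond 1 for Ctsg and Serpina3g and below -1 for Cst6. Stfa2l1, at 0 counts in MRL/lpr, is not drawn.

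Markers of other cells moved between the strains beside these values. For T and NK cells 5 of 8 markers rose and none fell, with a summed level of 14.3 to 17.6 CPM in MRL/lpr and 3.52 to 4.997 CPM in MRL/mpj libraries, and Cd3e, Ncr1 and Klrb1c were at 0 in at least 1 library. Ctsw, Gzma and Gzmb moved with this list. Of 8 neutrophil markers 3 rose, at 585 to 663 against 456 to 515 CPM, and of 8 monocyte markers 5 rose and 1 fell, at 85.5 to 95.2 against 86.0 to 94.5 CPM. Dendritic cell markers summed to 38.1 to 41.1 against 28.0 to 34.1 CPM (1 of 7 rose), and B cell markers to 8.65 to 10.7 against 8.73 to 9.84 CPM (none of 5 tested passed in edgeR, 2 had an unadjusted p under 0.05). Border macrophage markers, whose cells also express cathepsins, summed to 67.8 to 71.4 against 64.6 to 72.6 CPM, with 1 of 10 higher and 3 lower. The part of these cells in the cathepsin values was not tested.

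The microglial markers were high in every library, at 22505 to 25164 CPM in MRL/lpr and 26717 to 27331 CPM in MRL/mpj, and 3 of 10 fell with none higher. P2ry12, a purinergic receptor of resting microglia, had 1029, 876 and 601 CPM in MRL/lpr and 1259.5, 1379.9 and 1337 CPM in MRL/mpj libraries (edgeR adjusted p = 0.0566), and replicate 3 was the lowest. Tmem119 had 2127, 2134 and 2948 CPM against 2586, 2478 and 2398 CPM (edgeR adjusted p = 0.835), and there replicate 3 was the highest. Endothelial markers summed to 1659 to 1828 against 1473 to 1527 CPM, with 2 of 6 higher. Markers of choroid plexus and ependyma, tissues that make cystatin C, summed to 342 to 357 CPM in MRL/lpr and 1013 to 1092 CPM in MRL/mpj libraries, with 4 of 6 lower. Neuronal markers (22.8 to 28.9 against 38.3 to 44.1 CPM, 2 of 7 lower, Rbfox3 at 0 in a library) and oligodendrocyte markers (129.6 to 153 against 164 to 195 CPM, 2 of 6 lower, Mog at 0 in a library) were also lower, and astrocyte markers overlapped (65.6 to 73.1 against 63.9 to 74.7 CPM, none of 6 passed in edgeR, 2 with an unadjusted p under 0.05). The choroid, neuronal and oligodendrocyte lists were thus lower in the same libraries as Cst3 and Ctsb, and their part in those values was not tested.

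The genes most like Ctsf, the member with the smallest adjusted p, were Rnf40 (Pearson r = 0.997), Clptm1l (0.996), Cdh23 (0.993), Acly (0.993) and Ckb (0.993), on log2 CPM over 6 libraries and among 5420 genes with a mean log2 CPM of at least 5. They share libraries, depth and scaling with Ctsf, so this is a description. Like Ctsf, all 5 were highest in MRL/lpr replicate 3, at 221 CPM for Cdh23 against 181 and 177 CPM in the other MRL/lpr libraries and 139 to 144 CPM in the controls.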

How the data were processed

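Per the methods and processing notes, the authors trimmed reads of 150 bp pairs with cutadapt 1.9.3 and aligned them with HISAT2 2.0.4 to GRCm38. Cufflinks and Cuffdiff 2.2.1 are also named. The authors deposited raw gene counts, which are whole numbers, and FPKM values for each library, scaled to exon length and depth. Libraries were made from rRNA-depleted RNA with a stranded kit per the labels, whereas the methods describe purified mRNA. The counting tool and its strand setting were not given in the sources used here. Genes with 4 counts (1138 to 1288 per library) far outnumbered those with 3 (320 to 415), so 1 read pair may be worth more than 1 count. Symbols and positions came from GENCODE M21, which matched 55141 of 55401 identifiers. The 260 others held 8124 to 16804 counts per library.

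Counts were tested with edgeR 4.0.16 in R 4.3.3 (filterByExpr with a minimum count of 10 and total of 15, TMM, robust quasi-likelihood fit, no covariates, Benjamini-Hochberg adjustment over 19554 genes, common biological coefficient of variation 0.26). Genes were called at an adjusted p under 0.05 and a log2 fold change of 1 or more in size. DESeq2 1.42.0 and limma 3.58.1 on log2(FPKM + pseudocount of 0.1 or 1) were alternatives, and steps were tested on simulated data. FPKM served to order levels. The members and lists were chosen with earlier results of these data known. Named were all 10 members, listed genes past both thresholds, the most abundant gene of each list, 3 microglial markers, Fas, sex-linked genes and the 5 genes most like the member of smallest adjusted p.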

Additional observations from a re-analysis of the deposited data

How the results depend on the processing

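At the minimum 2-fold change, 0 of the 10 members were called in every alternative run. At the adjusted p alone, 1 member was lower in the edgeR fit. This count was 4 with DESeq2, with upper-quartile normalization, without a count filter and with limma on log2(FPKM + 0.1), 5 with library size only and with limma on log2(FPKM + 1), 2 with at least 1 CPM in 3 libraries and with counts divided by 4, and 0 in a test against a 1.5-fold change (glmTreat). Genes passing in either direction were 3950 of 19554 in the edgeR fit, 4360 of 24039 with DESeq2, 3995 of 19554 with upper-quartile and 3838 of 30602 without a filter. They were 3554 and 3809 of 14951 with limma at 0.1 and 1, and 4424 of 19554 with library size only. With at least 1 CPM they were 4007 of 15107, and with counts divided by 4 they were 4145 of 15635. With each library left out in turn the count of lower members was 0 to 5, namely 5 when MRL/lpr replicate 3 was left out and 0 for MRL/lpr replicate 2, MRL/mpj replicate 1 or MRL/mpj replicate 2. Genes passing in either direction were 4334 of 20440 without MRL/lpr replicate 3, 3154 of 20486 without MRL/lpr replicate 2 and 2803 of 20455 without MRL/mpj replicate 1. Without MRL/mpj replicate 2 they were 2850 of 20450. The count of higher members was 0 with glmTreat and with limma on log2(FPKM + 0.1), where Ctsf had a log2 fold change of 0.35 (adjusted p = 0.0659), and 1 to 2 with a library left out. Ctsf passed in 17 and Ctsb in 15 of 19 alternatives, Ctsc in 9, Ctsa and Ctsd in 7, Ctsz in 4, Ctss in 1, and Ctsh, Ctsk and Ctsl in 0. All genes at the adjusted p alone numbered 1340 with glmTreat, and all called genes 625 with limma on log2(FPKM + 1). The direction of Ctss turned to -0.069 with library size only and to -0.071 with limma at either pseudocount. Over libraries left out in turn, the log2 fold change of Ctsk ran from -0.58 to 0.043 and that of Ctsl from -0.13 to 0.012, both turning when MRL/lpr replicate 3 was left out. The median log2 fold change of all genes was -0.009 in the edgeR fit and -0.133 with library size only. With limma on FPKM it was -0.125 and -0.098 at pseudocounts of 0.1 and 1. These alternatives do not use the TMM factors, which were 0.92 to 0.98 in MRL/lpr and 1.04 to 1.05 in MRL/mpj libraries. glmTreat has a stricter null, and a pseudocount of 1 gives lower log ratios. The part of these differences in the counts and directions above was not tested. Deviations of libraries with the same replicate number had correlations of -0.04, -0.02 and -0.03. These values gave no sign of pairing by number, but they cannot exclude that such libraries were collected together. With a replicate block 1 member was higher (Ctsf, adjusted p = 0.0143) and 1 lower (Ctsb, adjusted p = 0.0491), and 3063 genes passed the adjusted p against 3950. Ctsk had 50 to 127 counts per library and the widest interval of the members.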
